A study of Aquilaria sinensis with 2 samples.

Results

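The 3 unigenes described here are those that the primer list of the study pairs with enzymes of sesquiterpene precursor supply in *Aquilaria sinensis*, the tree that forms agarwood. They were taken by identifier from the 89137 assembled unigenes counted in the stems, and all 3 were found. They are *HMGR* (Zhang_Cluster60873.seq.Contig1, 2256 bp), *DXPS* (Zhang_Cluster61437.seq.Contig2, 2303 bp) and *AsFPS* (Zhang_Cluster58892.seq.Contig1, 1342 bp), the last called *FPS* below. The study asked which transcripts accompany agarwood formation and sequenced 2 cDNA libraries, both from stems of 3-year-old planted trees. The healthy library (H) was made from pooled RNA of stems cut from healthy trees. The wounded library (W) was made from stems pruned with a knife and collected 6 cm below the cut, and material from 8 times, 2, 4, 6, 8, 12 and 24 h and 3 and 5 d after pruning, was mixed in equal parts. An early and a late level within W therefore cannot be told apart. How many trees went into each pool is not given in the sources used here. There was 1 library per condition, so no difference below has a replicate check, and each test compares the libraries and not the conditions.

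Plants make the isoprenoid building block isopentenyl diphosphate by 2 routes. HMGR, the reductase that turns HMG-CoA into mevalonate, is the main control point of the mevalonate (MVA) route of the cytosol and endoplasmic reticulum. DXPS joins pyruvate and glyceraldehyde 3-phosphate in the plastid and opens the DXP route. FPS joins these building blocks into farnesyl diphosphate, the substrate from which sesquiterpene synthases make the volatile sesquiterpenes of agarwood and from which sterols are made too. In plants the mevalonate route is the one usually tied to sesquiterpenes and sterols, the plastid route to monoterpenes, diterpenes and carotenoids, with some exchange between them.

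The unigene sequences were not used here. The study's real-time PCR primers are printed as listed under the 3 identifiers, and their match to the unigenes was not checked. All are given 5′ to 3′ in lower case, with no part marked in capitals.
HMGR forward: cgttctattgagagatgggatgac
HMGR reverse: atggcatcaccagtgctacaag
DXPS forward: ctcttgagattggcaaaggcag
DXPS reverse: attgctattggtcgcacctttac
FPS forward: atgataactacgggaaggataacgc
FPS reverse: acttgtccaccattccgtcgc
These primers were 21 to 25 bases long, with a GC content from 43.5% in the *DXPS* reverse primer to 57.1% in the *FPS* reverse primer.

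Every direction below follows the labels H and W as given. The deposited counts summed to 432265 reads in H and 423466 reads in W, and 1 read was worth 2.31 RPM (reads per 1000000 reads in unigenes) in H and 2.36 RPM in W. A floor of 3 reads, the limit that a count of 0 allows, was 6.94 RPM in H and 7.08 RPM in W. The median unigene detected in either library had 2 reads from it. The labelled tissue was not checked, since no stem marker gene is paired with an identifier in the sources used here. Which library is healthy and which is wounded was likewise taken from the labels and was not tested. Intervals in the text are exact 95% intervals. They cover counting error only, because the reads came from cDNA amplified over 25 cycles without molecular identifiers.

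*HMGR* was among the abundant transcripts of the healthy library and had far fewer reads in the wounded library. It had 131 reads in H, a level of 303 RPM (exact Poisson interval 253 to 359.6), and only 201 of the 67972 unigenes detected in H had more reads. In W it had 9 reads, a level of 21.3 RPM (9.72 to 40.3), and 8535 of the 74139 unigenes detected there had more. The intervals of the 2 libraries did not overlap. Relative to H, the share of W was 14.3-fold lower (interval 7.29 to 31.9), with P = 2.18e-24 by the chi-square test on this table and 1.99e-21 once adjusted by the Benjamini-Hochberg method across the whole table. At this depth an observed change of 1.56-fold downward would have passed the threshold of 0.01 set for the unadjusted test. That change corresponds to 54 of the 140 *HMGR* reads falling in W.

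*FPS*, which acts downstream of the mevalonate route, showed the same direction. It had 74 reads in H, or 171 RPM (134 to 215), with 621 unigenes above it. It had 4 reads in W, or 9.45 RPM (2.57 to 24.2), with 19228 unigenes above it and 5700 other unigenes at the same count. The level in W thus stood 1 read above the floor. Its share was 18.1-fold lower than in H (interval 6.79 to 68.3), with P = 4.66e-15 by the chi-square test and 1.74e-12 once adjusted. The width of this interval comes from the 4 reads in W, and the size of the decrease is less firmly known than that of *HMGR*.

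*DXPS*, of the plastid route, was read at a low level in both libraries. It had 13 reads in H, or 30.1 RPM (16.0 to 51.4), and 14 reads in W, or 33.1 RPM (18.1 to 55.5). These intervals overlapped almost completely. The ratio of W to H was 1.10 with an interval of 0.479 to 2.54 (P = 0.806 by the chi-square test, 0.957 once adjusted). With 27 reads in all, the test could have passed only a change of at least 3.43-fold downward, 6 reads or fewer in W, or of at least 3.57-fold upward, 21 reads or more in W. A smaller observed change of *DXPS* could not have passed at this depth. These limits refer to the observed split of the reads, and the power to find a true change was not computed. The ratio was 0.979 with median-ratio scaling and 0.957 with TMM scaling, so its direction was not fixed.

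In bulk stem RNA, fewer cells that express a gene and less of its RNA per cell cannot be told apart. With 1 pool per condition, wounding cannot be told apart from differences between the trees or cDNA preparations of the pools. In the paper, real-time PCR of stems, averaged over independent biological determinations, reported *HMGR*, *DXPS* and *FPS* as raised 5 d after pruning. For *HMGR* and *FPS* that direction is the opposite of the one counted here, where W mixes all times and each condition has 1 library. The reason for this difference was not tested.

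Set per kilobase of unigene, the 3 levels fell in a different order in the libraries. In H, *HMGR* stood at 134 RPM per kilobase (112 to 159) and *FPS* at 128 (100.2 to 160.1), while *DXPS* stood at 13.1 (6.95 to 22.3). The first 2 of this order did not differ beyond counting error, and both lay far above *DXPS*. In W the order was *DXPS* at 14.4 (7.85 to 24.1), *HMGR* at 9.42 (4.31 to 17.9) and *FPS* at 7.04 (1.92 to 18.0), with all 3 intervals overlapping. The high per-length level of *HMGR* and *FPS* in H was not seen in W, where they lay within counting error of *DXPS*.

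**Figure D1:**
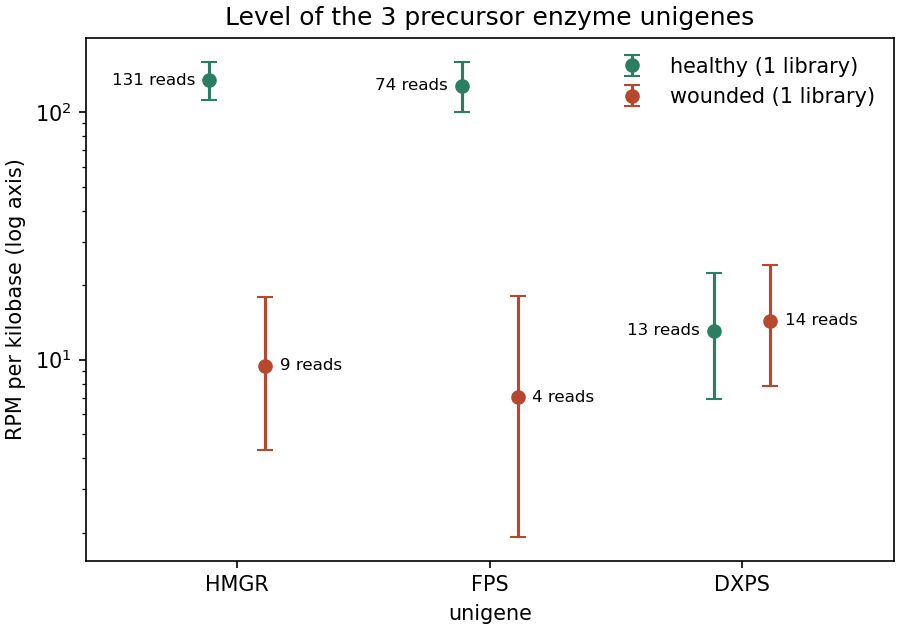
RPM per kilobase of unigene (log axis) for HMGR, FPS and DXPS in the healthy and the wounded library. Points are single libraries, bars are exact 95% Poisson intervals of the reads, and the number of reads stands beside each point: HMGR and FPS sit at 134 and 128 in the healthy library and at 9.42 and 7.04 in the wounded one, while both DXPS points lie between 13.1 and 14.4.

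The balance between *HMGR* and *DXPS* was compared within each library, where the library size cancels. Each route is represented here by a single unigene of 1 enzyme, so these values do not give the balance of the routes as a whole. In H, *HMGR* took 131 of the 144 reads of *HMGR* and *DXPS* together, 91.0% (exact interval 85.1% to 95.1%). In W it took 9 of 23, or 39.1% (19.7% to 61.5%). Per kilobase, *HMGR* was 10.3 times the level of *DXPS* in H (5.81 to 19.8) and 0.656 times in W (0.251 to 1.63). The *HMGR* to *DXPS* balance was 15.2-fold lower in W than in H (interval 5.07 to 48.9), with P = 8.90e-08 by Fisher's exact test, two-sided, and 2.67e-07 after Benjamini-Hochberg adjustment over the 3 pairs compared. The difference between *HMGR* and *DXPS* therefore rested on its own test and not on 1 passing while the other did not.

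*FPS* against *DXPS* gave a change of like size. *FPS* held 74 of 87 reads of this pair in H, 85.1% (75.8% to 91.8%), and 4 of 18 in W, 22.2% (6.41% to 47.6%). Per kilobase, *FPS* was 9.77 times the level of *DXPS* in H (5.38 to 19.2) and 0.490 times in W (0.118 to 1.56). This balance was lower in W by a factor of 19.1 (interval 5.02 to 92.4, P = 3.74e-07 by Fisher's exact test, 5.61e-07 after adjustment over the 3 pairs). This pair and the one before share the *DXPS* reads, so they are not independent of each other.

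*HMGR* and *FPS*, by contrast, had a balance that the reads could not tell apart between the libraries. *HMGR* was 1.05 times the level of *FPS* per kilobase in H (0.786 to 1.42) and 1.34 times in W (0.374 to 5.95). The balance in W over that in H was 1.27 with an interval of 0.340 to 5.84 (P = 0.775 by Fisher's exact test, 0.775 after adjustment). With 13 reads of the pair in W, an unequal decrease of up to 5.84-fold remained within this interval, so the reads do not show that the 2 unigenes fell by the same factor.

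**Figure D2:**
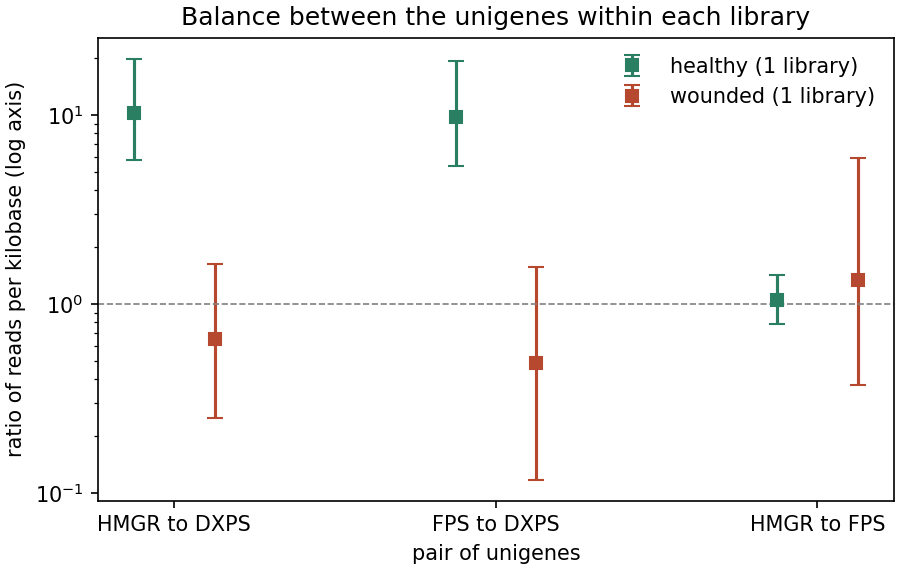
Ratio of reads per kilobase (log axis) for the 3 pairs of unigenes within the healthy and the wounded library, with exact 95% intervals of counting error; the dashed line marks equal levels. The ratios to DXPS lie at 10.3 and 9.77 in the healthy library and at 0.656 and 0.490 in the wounded one, while HMGR to FPS lies near the line in both.

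Summed over the 3 unigenes, H held 218 reads (504 RPM) and W held 27 reads (63.8 RPM). Of these, *HMGR* made up 60.1% in H and 33.3% in W. *FPS* made up 33.9% in H and 14.8% in W. *DXPS* made up 5.96% in H and 51.9% in W. This single *DXPS* unigene was thus the smallest part of the sum in H and the largest in W, although its own level was close in the libraries. Other unigenes of the 3 enzymes are not in this sum.

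Reads of 1 transcript can be divided among unigenes that share a cluster number, so the clusters of the 3 unigenes were inspected. The clusters of *HMGR* and *FPS* held no other unigene. That of *DXPS* held 1 more, Zhang_Cluster61437.seq.Contig1, a sequence of 354 bp that the sources used here do not pair with a gene name, with 2 reads in H and 4 in W. Its 6 reads were too few for any split between the libraries to pass the test. With these reads added, the *DXPS* cluster counted 15 reads from H and 18 from W, which gave a ratio of 1.22 between W and H (interval 0.583 to 2.61, P = 0.561 by the chi-square test). Unigenes of the same enzymes under other cluster numbers were not analysed here, since the sources used here do not pair them with identifiers. The paper annotates further unigenes to each enzyme and lists read totals per enzyme. In those totals *HMGR* and *FPS* were also lower in W, but by smaller factors than here. Most *DXPS* reads there belong to other unigenes. The levels and ratios given here are therefore those of single unigenes and not of the enzymes.

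Of the 3 unigenes, 2 were lower in W, 0 were higher and 1 did not pass. Over all 89137 unigenes, 4.40% were called by the same test, 2.55% lower in W and 1.84% higher, and 1.16% lower and 0.381% higher with the adjusted P, but most unigenes had too few reads to be called. Among the 6687 unigenes of at least 1000 bp with at least 20 reads, a class that holds all 3 members, 27.4% were called, 15.7% lower and 11.8% higher. A lower call alone was therefore not rare among unigenes read this often. The size of the decrease was less common: with 0.5 reads added, 152 unigenes of this class (2.27%) had a lower log2 ratio than *HMGR* at -3.76, and 123 (1.84%) had a lower one than *FPS* at -4.02. The median of the class was 0.16, with quartiles of -0.62 and 0.66. *DXPS* at 0.13 lay close to that median, with 48.6% of the class below it. Decreases of at least 8-fold were seen in 279 unigenes of the class and increases of at least 8-fold in 52. Over all 89137 unigenes, most of them with few reads, the numbers were 3112 and 3348. By this 8-fold count the excess of decreases was seen in this class and not in the whole table. Among the unigenes called by the test, lower ones outnumbered higher ones in the whole table too, as given above.

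**Figure D3:**
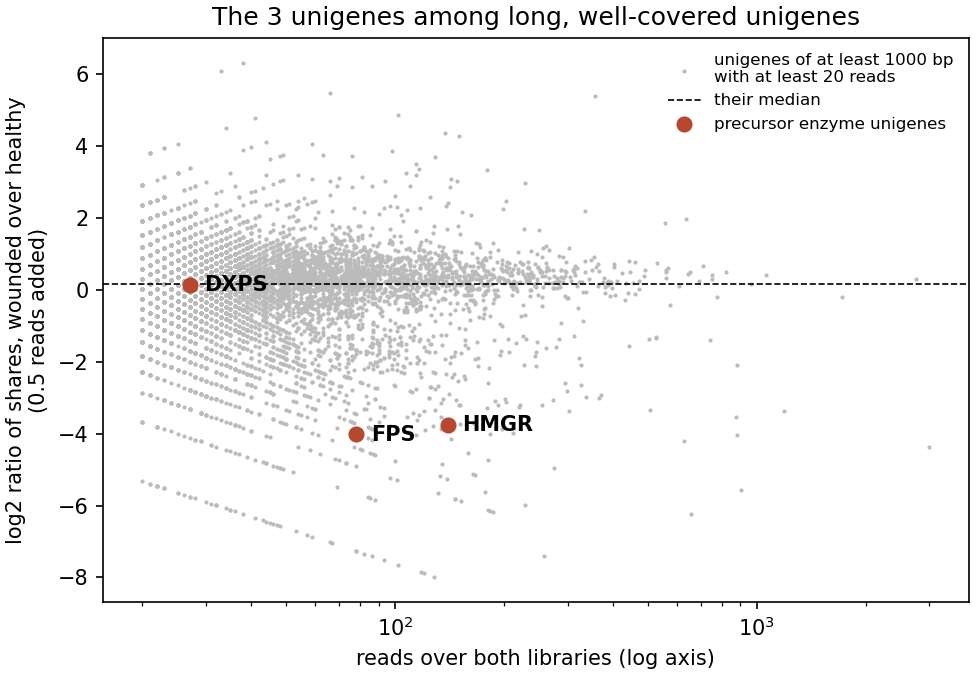
Log2 ratio of read shares, wounded over healthy with 0.5 reads added, against the reads over both libraries (log axis) for the 6687 unigenes of at least 1000 bp with at least 20 reads (grey), with HMGR, FPS and DXPS in red. HMGR (-3.76) and FPS (-4.02) lie far below the dashed median of 0.16, and DXPS (0.13) lies on it.

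The nearest ratios among other unigenes with a gene name were looked up in the primer list, which names 30 regulators, of which 29 identifiers were found and 25 had at least 20 reads. Likeness was the distance between log2 ratios over the 2 libraries, a pattern of a single number. Nearest to *HMGR* were *ACO3*, named for the oxidase that makes ethylene, 0.23 away, with 806 reads from H and 68 from W, and *AOSC*, named for the allene oxide synthase of jasmonate synthesis, 0.55 away, with 174 and 18 reads. Nearest to *FPS* were *MYB4*, a MYB factor, 0.42 away, with 77 and 3 reads, and again *ACO3*, 0.49 away. Nearest to *DXPS* were the superoxide dismutase *SODCP*, 0.13 away, with 17 and 20 reads, and the MYB factor *APL1*, 0.17 away, with 14 and 17 reads. The intervals of the ratios of *SODCP* (0.598 to 2.44) and *APL1* (0.575 to 2.72) overlapped most of that of *DXPS*. *MYB4* stood at the floor of 3 reads in W. The interval of its ratio (0.00803 to 0.121) overlapped most of that of *FPS* (0.0146 to 0.147). The order of nearness among such unigenes is therefore not firm.

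The choice of library size moved the 3 ratios together and left the decrease of *HMGR* and *FPS* in place. Over the 10 alternatives, the decrease of *HMGR* ran from 12.9-fold to 16.4-fold and that of *FPS* from 14.7-fold to 20.8-fold. Both passed the threshold under each of them, with the largest P, by the chi-square test with Bonferroni adjustment over all unigenes, at 1.95e-19 and 4.15e-10. For *HMGR* and *FPS*, the smallest decrease came with 1 read added and the largest with TMM scaling. The ratio of *DXPS* ran from 0.957 with TMM scaling to 1.22 with the cluster sum, and it passed under none.

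**Figure D4:**
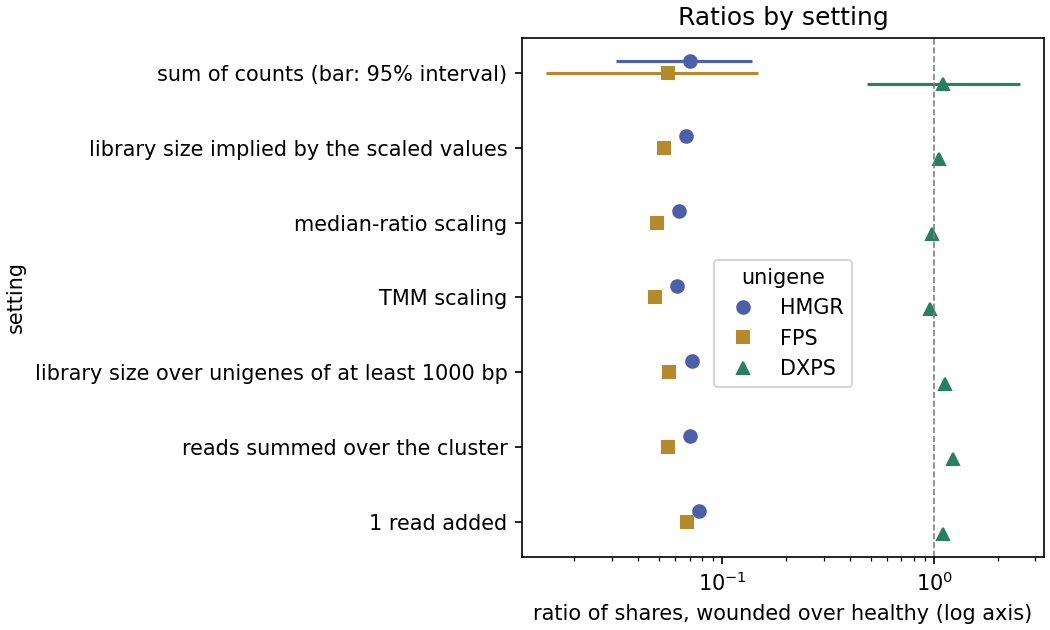
Ratio of read shares, wounded over healthy (log axis), of HMGR, FPS and DXPS under 7 settings of library size or counting; bars in the top row are exact 95% intervals, and the dashed line marks equal shares. HMGR and FPS stay between 0.0480 and 0.0773 throughout, and DXPS stays between 0.957 and 1.22, on both sides of the line.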

How the data were processed

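Stem cDNA was made by SMART synthesis and long-distance PCR and sequenced by GS-FLX pyrosequencing. The authors removed vector sequence, tails and reads under 100 bp, built 1 assembly of H and W reads with MIRA, and reduced redundancy with UIcluster 2.0 and Cap3. For MIRA and Cap3 no version, and for the read counting no tool, is given in the sources used here. The deposited counts are whole numbers of reads per unigene in each library, without normalization. The deposited values labelled TPM are reads per 1000000 reads of the library (RPM) that are not divided by length: all (100%) lay within 0.06 of the count plus 1 read over a library size of 530435 in H and 543030 in W, so unigenes with 0 reads are listed at 1.9 and 1.8. These values were used only to obtain those library sizes. RPM in the text was computed from the counts and their sums. The deposited length of each unigene gave the levels per kilobase.

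Each unigene was tested by Pearson's chi-square test without continuity correction, at the threshold of P = 0.01 that the methods of the study name, and P was adjusted over all unigenes by the Benjamini-Hochberg method. With 1 library per condition, no model across replicates could be fitted. Ratios carry Clopper-Pearson intervals given the summed reads, single levels exact Poisson intervals, and pairs of unigenes Fisher's exact test with conditional intervals. The named unigenes are the 3 members, the other unigenes of their clusters, and for each member the 2 nearest log2 ratios among named unigenes of the primer list with at least 20 reads. The members and lists were chosen with earlier results of these data known. Alternatives were Fisher's exact test, Yates' correction, other adjustments, library sizes and scalings, cluster sums and added reads. The tests were run on simulated libraries with known changes and counting error only. That setting does not cover amplification or differences between pools, so it does not bear on those errors. Tests used scipy 1.17.1 with pandas 2.3.3 and numpy 2.4.6 in Python 3.11.15, plots matplotlib 3.10.9, and TMM factors edgeR 4.0.16 in R 4.3.3.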

Additional observations from a re-analysis of the deposited data

How the results depend on the processing

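*HMGR* and *FPS* kept their direction and passed the threshold under all 10 alternatives, and the 3 balances kept theirs under all 3 alternatives run for each. Part of this was fixed in advance. Other tests and adjustments leave the ratio of a unigene as it is. Cluster sums repeat the main result for *HMGR*, for *FPS* and for their balance, since their clusters held no other unigene. *DXPS* passed under none, and its ratio of 1.10 turned to 0.979 with median-ratio scaling and 0.957 with TMM scaling. By construction these 2 shift every log2 ratio, by -0.17 and -0.20. The unigenes called over the whole table numbered 3918, 4.40% of those tested, of which 1644 (42.0%) were higher in W. The count fell to 1376 with Benjamini-Hochberg adjustment, and to 2299 over unigenes of at least 1000 bp and 1835 over those with at least 20 reads as well, the last chosen after seeing the data, where fewer unigenes were tested. The higher calls made up 24.7% with the adjustment, 28.8% (1045 against 2579) with median-ratio scaling and 25.2% (992 against 2947) with TMM scaling. No paired analysis was possible because each condition has 1 library. Depth limits *DXPS* most, with 27 reads over both libraries, and the size of the decrease of *FPS*, with 4 reads in W.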
